A study of Rattus norvegicus with 10 samples.

Results

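The interleukin-1 family genes described here are the 9 genes Il1rap, Il1r1, Il1rl1, Il1b, Il18, Il33, Il1rn, Irak1 and Irak4, out of 30560 genes in the count table. They were matched by gene name, and each name belonged to 1 row. The set was drawn around Il1rap, which had been seen to be higher in ganglia of siRNA-treated rats, so its difference between the groups, and that of the other 8 genes in the same comparison, is given as a description without a test. The tissue was the L6 dorsal root ganglion, which holds cell bodies of sensory neurons, taken from Sprague Dawley rats of 7 to 8 weeks and measured by RNA sequencing. In 5 samples the rats had received PBS (0 mg siRNA) and in 5 samples 0.75 mg of SCN9A_2544, a divalent siRNA against Scn9a, the gene of the sodium channel Nav1.7. Rats of both groups carried a lumbar intrathecal catheter, were dosed through it 5 days after its implantation under isoflurane, and had the analgesic meloxicam after surgery and after dosing. All samples bear a timepoint of 14 days, and the labels do not say which event it is counted from. No group given another siRNA was analysed here, so the siRNA's sequence and dosing with any siRNA cannot be told apart.

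Interleukin-1 beta and interleukin-1 alpha bind the receptor IL-1R1, which then recruits the accessory protein encoded by Il1rap. Interleukin-33 does the same through its receptor ST2, the product of Il1rl1, with the same accessory protein. The assembled receptors pass the signal to the adaptor MyD88 and the kinases IRAK4 and IRAK1, and on to the transcription factor NF-kB. Interleukin-1 receptor antagonist, encoded by Il1rn, occupies IL-1R1 without recruiting the accessory protein. Interleukin-1 beta and interleukin-18 are made as precursors that caspase-1 cuts within inflammasomes. Interleukin-33 is stored in the nucleus of tissue cells such as fibroblasts and endothelial cells. In sensory ganglia interleukin-1 is known as a signal between immune cells, satellite glia and neurons that sensitizes nociceptors.

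The 10 libraries held 11832376 to 15420006 estimated counts each, and all 9 family genes were among 15186 genes with enough counts for a test. Markers of the labelled tissue were present, with 16 of 16 neuronal, 12 of 12 Schwann cell and 10 of 10 satellite glia markers above the filter. The target itself, Scn9a, had 132 to 257 CPM in the PBS libraries and 44.6 to 103 CPM in the treated ones, without overlap. CPM stands for counts scaled to a common library size. Its difference was -1.05 on the log2 CPM scale (exact permutation test, two-sided, p = 0.00794, which is the smallest p that 252 splits can give), and none of its 10 estimates was a whole count. Over all genes, edgeR's quasi-likelihood test called 0 of 15186 genes (0%) at an adjusted p of 0.05, with 642 at an unadjusted p under 0.05, while DESeq2 called 17. Scn9a itself was called by neither tool (edgeR adjusted p = 0.963, DESeq2 adjusted p = 0.0604), so the lack of a call does not show a lack of change. By edgeR 0 of the 9 family genes passed, with 2 (Il1rap and Il1r1) at an unadjusted p under 0.05. DESeq2 called 1 of the 9, Il1rap, against 0.0945% of the genes it tested. Because the set was chosen on this comparison, these counts describe the set and carry no further weight. In bulk tissue, fewer cells of a type and less RNA per cell cannot be told apart.

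**Figure D1:**
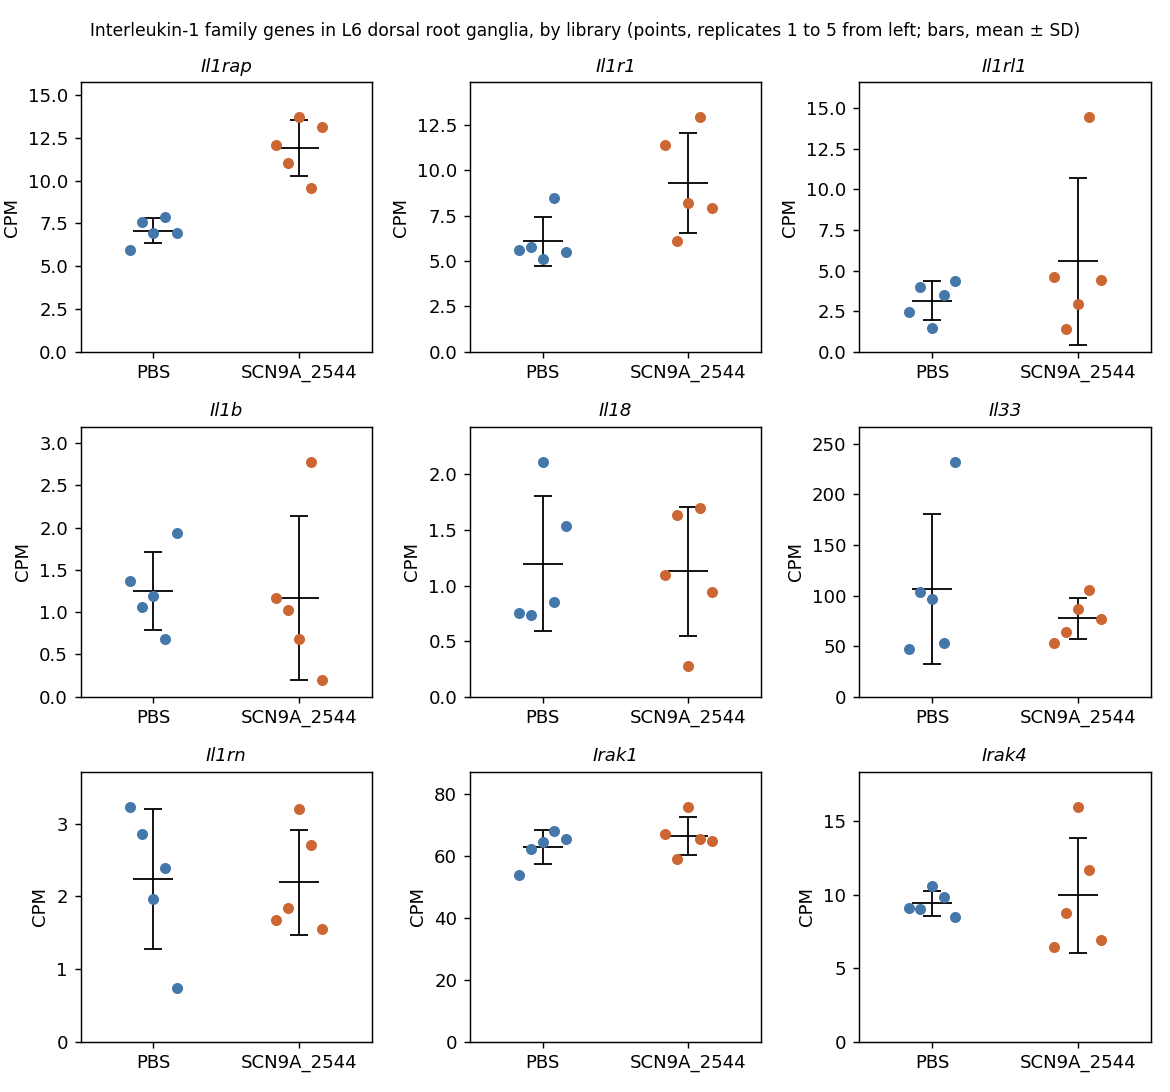
CPM of the 9 interleukin-1 family genes in each library, with the 5 PBS libraries (blue) and 5 SCN9A_2544 libraries (orange) as points and the group mean ± SD as black bars; each panel has its own axis starting at 0. The treated libraries of Il1rap (9.57 to 13.7 CPM) lie above all PBS libraries (5.97 to 7.86 CPM), and the groups overlap for the other 8 genes.

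Among the receptor genes, Il1rap (ENSRNOG00000001928), the accessory chain shared by the interleukin-1, interleukin-33 and interleukin-36 receptors, was the gene the set was drawn around. PBS replicates 1 to 5 held 5.97, 7.58, 6.96, 7.86 and 6.94 CPM. SCN9A_2544 replicates 1 to 5 held 12.1, 11.0, 13.7, 9.57 and 13.1 CPM. Every treated library was thus above every PBS library, and the spread within a group was small, with a coefficient of variation of 10.3% in PBS and 13.9% in treated ganglia. Il1rap was the 1 of 9 members whose groups did not overlap, where 0.454% of all genes tested had treated libraries wholly higher and 0.211% wholly lower, and nothing is read from this. The group means were 7.06 ± 0.727 and 11.9 ± 1.66 CPM (SD, n = 5 each), and the edgeR log2 fold change was 0.75 (SE 0.16), a 1.68-fold level. The raw counts behind these values ran from 87 to 201 and had no fractions. Leaving out any 1 library kept the log2 fold change between 0.66 and 0.82. Gene counts do not separate the membrane-bound from the soluble form of the protein's transcripts.

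Count ratios within a library need no scaling between libraries, and they are given as a further description of the same values. The log2 ratio of Il1rap counts to those of Irak1 was between -3.24 and -3.04 in PBS and between -2.77 and -2.30 in treated libraries. Against Il1r1 the log2 ratio was between -0.11 and 0.44 in PBS and between -0.43 and 0.84 in treated libraries. Against Il1rl1 it was between 0.67 and 2.21 in PBS and between -0.59 and 2.92 in treated libraries. The ranges were apart for the ratio to Irak1 and overlapped for the ratios to Il1r1 and Il1rl1.

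The sequences upstream of Il1rap and Il1r1 are shown because these genes encode the chains of the signalling interleukin-1 receptor. Each runs 5′ to 3′ in the direction of the gene over the 250 bases before a RefSeq start, in build GRCr8. This is another build than that of the counts, and the genes were matched by symbol. Capitals mark matches to the NF-kB consensus, the GC box (GGGCGG), the AP-1 motif (TGANTCA) and the TATA box (TATAAA), searched on both strands, and no matches overlap.
Il1rap, minus strand, chr11:87704343-87704592: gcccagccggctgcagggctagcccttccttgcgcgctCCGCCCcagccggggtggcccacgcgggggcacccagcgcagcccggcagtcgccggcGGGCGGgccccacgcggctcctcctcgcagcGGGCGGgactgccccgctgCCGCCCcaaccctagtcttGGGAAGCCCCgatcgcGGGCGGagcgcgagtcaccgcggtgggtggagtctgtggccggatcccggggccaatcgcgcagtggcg
Il1r1, plus strand, chr9:50034133-50034382: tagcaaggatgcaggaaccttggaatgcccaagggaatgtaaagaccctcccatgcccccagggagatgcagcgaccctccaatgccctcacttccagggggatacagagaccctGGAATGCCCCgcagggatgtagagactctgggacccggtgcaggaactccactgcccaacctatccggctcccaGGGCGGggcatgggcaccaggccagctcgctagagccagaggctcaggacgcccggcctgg

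The Il1rap window shown was 78.4% G and C, with 5 GC boxes and 1 NF-kB match (GGGAAGCCCC, starting 85 bases before the start). A second RefSeq start of Il1rap has an overlapping window of 72.4% G and C, with 4 GC boxes and the same NF-kB match 166 bases before that start. The Il1r1 window was 63.6% G and C, with 1 GC box and 1 NF-kB match (GGAATGCCCC, starting 135 bases before the start). The NF-kB matches of Il1rap and Il1r1 lie on the strand opposite to the gene, and their letters are written here in the direction of the gene. Over 33469 windows of this length the median was 51.2% G and C, 30.5% held a GC box, 12.9% a TATA box, 6.34% an AP-1 motif and 3.54% an NF-kB match. All 9 genes matched the promoter table, with 11 windows. The AP-1 motif was in none of the 11, the NF-kB match was in those of Il1rap and Il1r1 only, and the TATA box was found upstream of Il33 (1 of its 2 starts), Il1b, Il1rn and Il1rl1. These matches describe letters, and no binding was measured here.

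Il1r1 (ENSRNOG00000014504), the signalling receptor for interleukin-1, had 5.63, 5.79, 5.13, 8.46 and 5.47 CPM in PBS replicates 1 to 5. The treated replicates 1 to 5 had 11.4, 6.12, 8.17, 12.9 and 7.95 CPM. PBS replicate 4 lay inside the treated range, and the other 4 PBS libraries lay below all treated libraries. The group means were 6.10 ± 1.34 and 9.30 ± 2.76 CPM (SD, n = 5 each), and the log2 fold change was 0.61 (SE 0.24). With the mean of macrophage markers as a covariate the log2 fold change was 0.31, lower than under any other alternative tried.

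Il1rl1 (ENSRNOG00000014835), which encodes the interleukin-33 receptor ST2, had the highest log2 fold change of the set, 0.82, with an SE of 0.53. PBS replicates 1 to 5 held 2.47, 3.99, 1.48, 3.50 and 4.34 CPM, and treated replicates 1 to 5 held 4.59, 1.43, 2.93, 14.4 and 4.45 CPM. The groups overlapped over most of their range, and treated replicate 4 alone stood far above the rest. Without treated replicate 4 the log2 fold change was 0.08, and with limma voom and library weights it was -0.05. ST2 is carried by mast cells among others. The mean of 7 tested mast cell markers in treated replicate 4 was 0.79 log2 CPM, inside the treated range of 0.62 to 1.71 and below the PBS range of 1.12 to 2.22. The summed level of the 9 mast cell markers with a row, of which 2 were too low to be tested, was instead highest in that library, at 63.0 CPM against 31.1 to 48.1 CPM in the other 9, and Kit, which other cells also express, made up most of that sum in the group means. The macrophage marker mean of this library was the highest of the 10, at 4.44 log2 CPM, and with that mean as a covariate the Il1rl1 log2 fold change was -0.49 (SE 0.64).

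Over the 10 libraries Il1r1 and Il1rl1 ran together, with Pearson r = 0.73 between their log2 CPM values and 0.76 after each group was centred on its own mean. Treated replicate 4 was the highest library for each of these genes, at 12.9 and 14.4 CPM, and r without it was not computed. For Il1rap and Il1r1, r was 0.58 over the 10 libraries and -0.09 after centring. For Il1rap and the sparsely counted Il1b, r was -0.50 over the 10 libraries and -0.76 after centring. These correlations are descriptions over libraries that share their depth and scaling, taken from 36 pairs of members.

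The groups overlapped for all 4 ligand genes. Il33 (ENSRNOG00000016456), the alarmin ligand of ST2, had 47.7, 104, 96.7, 52.9 and 232 CPM in PBS replicates 1 to 5 and 53.6, 64.1, 86.6, 106 and 76.8 CPM in the treated replicates. Its spread in PBS was wide, a coefficient of variation of 69.8% against 26.1% in treated ganglia, with PBS replicate 5 the highest of all libraries. The log2 fold change was -0.46 (SE 0.39) with all libraries and 0.01 without PBS replicate 5.

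Il1b (ENSRNOG00000004649), which encodes the inflammatory cytokine interleukin-1 beta, was sparsely counted. It had 8 to 29 counts in PBS libraries and 3 to 44 in treated libraries, summing to 90 and 88. The lowest and the highest value of all 10 libraries were both in the treated group, at 0.202 CPM in replicate 5 and 2.77 CPM in replicate 4. The 3 counts of treated replicate 5 have a 95% exact Poisson interval of 0.619 to 8.77 counts, and the 44 counts of replicate 4 one of 32.0 to 59.1 counts, which cover counting error only. The log2 fold change of Il1b was -0.10, with a 95% interval of -1.25 to 1.06, and it ran from -0.71 (without treated replicate 4) to 0.17 (without treated replicate 5) with 1 library left out.

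Il18 (ENSRNOG00000009848), a ligand of the same family that drives interferon gamma production, summed to 85 counts in PBS and 84 in treated libraries, with 0.732 to 2.11 CPM and 0.272 to 1.70 CPM. Its log2 fold change was -0.08 (95% interval -1.10 to 0.93). Il1rn (ENSRNOG00000005871), the receptor antagonist, ranged from 0.734 to 3.23 CPM with PBS and from 1.55 to 3.20 CPM with the siRNA. Its log2 fold change was -0.02 (95% interval -0.84 to 0.79). With 1 library left out the Il18 value ran from -0.28 (without treated replicate 4) to 0.22 (without PBS replicate 3), and the Il1rn value from -0.28 (without PBS replicate 5) to 0.15 (without PBS replicate 1). The intervals of Il1b, Il18 and Il1rn thus all reached past -0.8 and past 0.7 on the log2 scale, and changes inside them were not detectable with these libraries.

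Both kinase genes had group means close to each other. Irak1 (ENSRNOG00000060869), which is phosphorylated in the receptor complex and released from it, averaged 63.0 ± 5.39 CPM in the PBS libraries and 66.5 ± 6.02 CPM in the treated ones (SD, n = 5 per group). Its log2 fold change was 0.08 (95% interval -0.17 to 0.33), the tightest interval of the 9 genes. Irak4 (ENSRNOG00000005965), the kinase that acts first in the complex, ranged from 8.48 to 10.6 CPM with PBS and more widely, from 6.42 to 15.9 CPM, with the siRNA, where replicates 3 and 4 were high and replicates 1 and 5 low. Its log2 fold change was also 0.08 (95% interval -0.45 to 0.61), and -0.19 without treated replicate 3.

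Over the 8 members other than Il1rap, 4 had a log2 fold change above 0 and 4 below 0, where 53.4% of all genes tested lay above 0. The 3 receptor genes lay above 0, the 4 ligand genes below 0 and the 2 kinase genes above 0. This order by role is a description of the point values, since the intervals of Il1rl1, the ligands and the kinases all crossed 0.

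**Figure D2:**
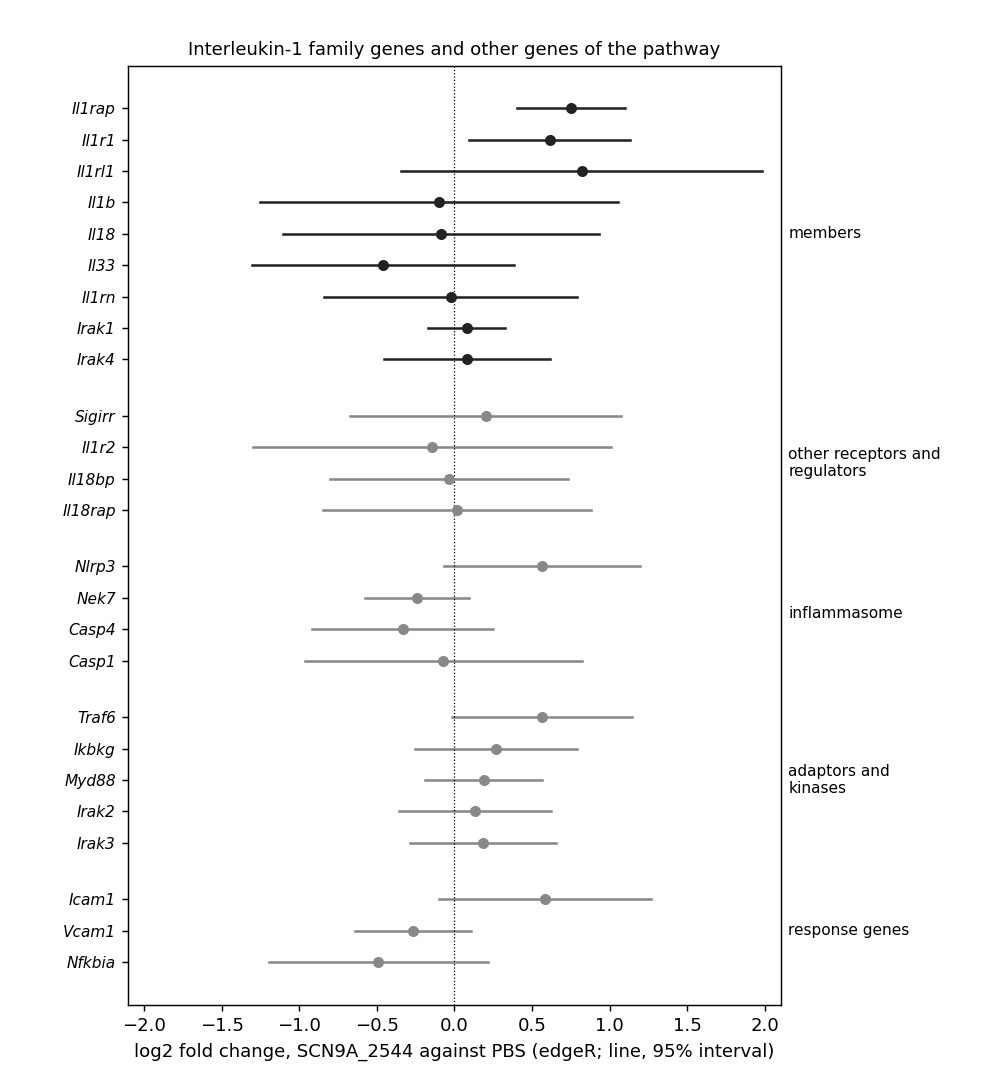
Log2 fold change (points) and 95% interval (lines) from the edgeR fit of SCN9A_2544 against PBS, for the 9 members (black) and for other genes of the pathway (grey), grouped by role. The intervals of Il1rap (0.41 to 1.10) and Il1r1 (0.09 to 1.13) lie above 0, with no adjustment for the number of genes, and the other intervals drawn all cross 0.

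Other genes of the pathway were taken as 64 named genes in 4 lists, of which 62 had a row and 47 were tested. By edgeR 0 were called higher and 0 lower over all genes tested, against 0% of all genes, 0 had an unadjusted p under 0.05, and DESeq2 called 0. Of the 47, 27 lay above 0, and their median log2 fold change was 0.05, beside 0.02 over all genes tested.

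Of the other receptors, ligands and regulators, 4 of 13 with a row were tested. The decoy receptor Il1r2 averaged 0.885 ± 0.702 CPM with PBS and 0.803 ± 0.374 CPM with the siRNA (SD, n = 5 per group). The inhibitory receptor Sigirr had a log2 fold change of 0.20 (SE 0.40), the interleukin-18 binding protein Il18bp one of -0.03 (SE 0.35) and the interleukin-18 receptor accessory chain Il18rap one of 0.02 (SE 0.40). The other interleukin-18 receptor chain, Il18r1, stayed below the filter, with 23 counts over the PBS and 33 over the treated libraries. Of these, 12 were in PBS replicate 5 and 19 in treated replicate 4. Il1a, the other agonist of IL-1R1, had 1 count over the 5 PBS libraries and 9 over the 5 treated libraries, 5 of them in replicate 4.

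All 11 inflammasome genes were tested, and 7 lay above 0 with a median of 0.20. The sensor Nlrp3 averaged 2.33 ± 0.700 CPM with PBS and 3.45 ± 0.916 CPM with the siRNA (SD, n = 5 per group). The Nlrp3 log2 fold change was 0.57 (SE 0.29, edgeR adjusted p = 0.963). Casp1, the protease that cuts the Il1b and Il18 precursors, had a log2 fold change of -0.07 (SE 0.41). Casp4, of the non-canonical inflammasome, had one of -0.33 and Nek7, a partner of NLRP3, one of -0.24.

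Of 19 adaptors and kinases, all tested, 13 lay above 0 with a median of 0.07. Traf6, the ubiquitin ligase below the IRAK kinases, averaged 4.03 ± 1.14 CPM with PBS and 5.97 ± 1.62 CPM with the siRNA (SD, n = 5 per group). Its log2 fold change was 0.56 (SE 0.27, edgeR adjusted p = 0.963). The adaptor Myd88 had a log2 fold change of 0.19 (SE 0.17), Irak2 one of 0.13, the inhibitory family member Irak3 one of 0.18 and the NF-kB kinase scaffold Ikbkg one of 0.27.

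Of 19 response genes with a row, 13 were tested, 5 lay above 0 and the median was -0.03. The adhesion molecule genes differed in sign, Icam1 with a log2 fold change of 0.59 (SE 0.31) and Vcam1 with one of -0.27 (SE 0.17). Nfkbia, the inhibitor that NF-kB itself induces, had one of -0.49 (SE 0.32). Il6, named here after its values were seen, was below the filter, with 2, 0, 0, 0 and 0 counts in PBS replicates 1 to 5. The treated replicates 1 to 5 had 2, 3, 2, 20 and 3 counts of Il6, so replicate 4 held most of them.

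Marker lists of the other cells in the ganglion are given beside Il1rap. By edgeR 0 markers were called in any of them, as were 0 of all genes, while DESeq2 called 1 macrophage marker. An unadjusted edgeR p under 0.05 was held by 8 of 16 macrophage, 3 of 10 satellite glia and 2 of 7 mast cell markers. It was also held by 1 of 9 endothelial and 1 of 10 fibroblast markers, beside 642 of 15186 genes. Treated libraries lay wholly above PBS for 5 of 16 macrophage, 1 of 10 satellite glia and 1 of 9 endothelial markers, against 0.454% of all genes tested. Of 16 tested macrophage markers 14 lay above 0, and their summed level ran from 185 to 299 CPM with PBS and from 281 to 492 CPM with the siRNA, with no marker at 0 in every library. Of 10 tested satellite glia markers 8 lay above 0, with sums of 3236 to 4794 CPM with PBS and 4532 to 5407 CPM with the siRNA. The mean of the satellite glia markers did not overlap between groups, at 5.98 to 6.30 log2 CPM in PBS and 6.48 to 6.63 in treated ganglia, while the macrophage means, 3.13 to 3.77 and 3.65 to 4.44, did. Neuronal marker means, 8.17 to 9.35 and 7.91 to 9.35 log2 CPM, largely overlapped. The point values lay below 0 for 9 of 10 tested neutrophil, 9 of 12 Schwann cell, 7 of 10 fibroblast, 5 of 7 mast cell and 4 of 6 lymphocyte markers. They lay above 0 for 11 of 16 neuronal and 6 of 9 endothelial markers, where 53.4% of all genes tested lay above 0. These signs do not show lower content, since the marker means of each of these lists overlapped between groups. The PBS and treated averages of these means were 3.89 and 3.89 log2 CPM for neutrophils, 6.91 and 6.98 for fibroblasts and 1.22 and 1.33 for lymphocytes. For Schwann cells they were 9.29 and 9.05, and for mast cells 1.57 and 1.12.

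With the macrophage marker mean as a covariate the log2 fold change of Il1rap was 0.72 (SE 0.23), and with the neuronal marker mean it was 0.76 (SE 0.15). The part of satellite glia in the Il1rap difference was not tested. Because Il1rap and the satellite glia mean both fell into separate clusters by group, no pooled correlation is given for them. Centred on the group means, Il1rap had r = 0.18 with the satellite glia mean over the 10 libraries (permutation p = 0.585). With the macrophage mean it had r = 0.09 (permutation p = 0.826). With 5 libraries a group these centred values are too uncertain to show a relation or its absence.

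**Figure D3:**
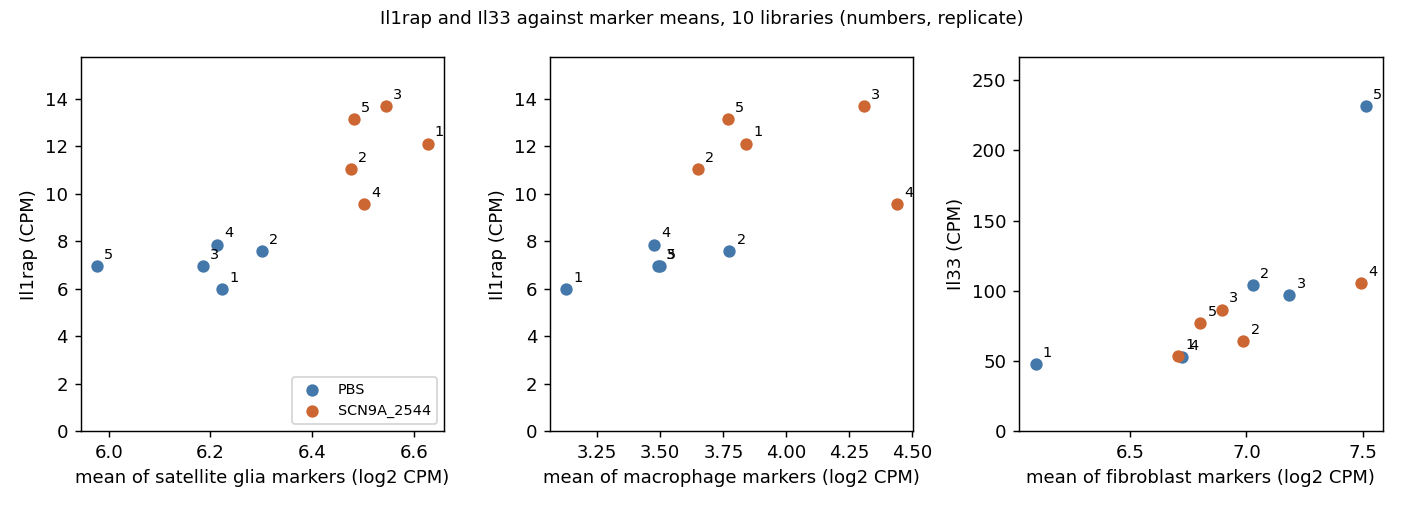
Il1rap against the mean of satellite glia markers (left) and of macrophage markers (middle), and Il33 against the mean of fibroblast markers (right), each point a library with its replicate number, PBS in blue and SCN9A_2544 in orange; x axes are mean log2 CPM, y axes CPM from 0. On the left the groups separate on both axes, and on the right Il33 climbs with the fibroblast mean across both groups, PBS replicate 5 (232 CPM) being highest.

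The relation of the members to cell content was not itself used to choose the set, but over all 10 libraries it includes the difference between the groups. The relations of Il1rap over all libraries are therefore not independent of that choice. Each of the 9 genes was compared with the marker means of neurons, Schwann cells, satellite glia, macrophages, endothelium and fibroblasts over the 10 libraries, 54 relations in all. By Pearson's r 0 passed an adjusted permutation p of 0.05 and by Spearman's rho 1 did. That relation was Il33 with the fibroblast markers, with rho = 0.94 (permutation p = 0.00017, adjusted p = 0.00918) and r = 0.83 (permutation p = 0.00452, adjusted p = 0.116). Libraries with more fibroblast marker RNA held more Il33, from PBS replicate 1, lowest in both, to PBS replicate 5, highest in both. Without the 2 libraries farthest from the median r was 0.78. With each group centred r was 0.87 (permutation p = 0.00747, adjusted p = 0.367), and 0 of the 54 relations passed after centring, by r or by rho. Leaving out 1 library kept rho between 0.92 and 0.97, with adjusted p from 0.00756 to 0.0772, and the call was lost without PBS replicate 1, PBS replicate 5, SCN9A_2544 replicate 3 or SCN9A_2544 replicate 4.

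Il33 also had r = -0.58 with the neuronal mean (permutation p = 0.0795, adjusted p = 0.330; rho = -0.75, permutation p = 0.0181, adjusted p = 0.196). With the Schwann cell mean it had r = 0.70 (permutation p = 0.0184, adjusted p = 0.210; rho = 0.78, permutation p = 0.0110, adjusted p = 0.196). Without the 2 farthest libraries these r values were -0.98 and 0.95. Irak1 had r = 0.86 with the endothelial mean (permutation p = 0.00643, adjusted p = 0.116; rho = 0.67, permutation p = 0.0395, adjusted p = 0.305). That relation rested on the 2 farthest libraries, since r was 0.24 without them. Il1rap, Il1r1, Il1rl1, Il1b, Il18, Il1rn and Irak4 also had no relation past the adjusted threshold, and the low counts of Il1b, Il18 and Il1rn limit what could be seen.

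The genes most like Il1rap across the libraries were listed by Pearson's r of log2 CPM over 10 libraries, among 15185 other tested genes. The highest were Upf1 (r = 0.96), a helicase of nonsense-mediated decay, ENSRNOG00000066596 (0.94), ENSRNOG00000068602 (0.94), Oplah (0.93), an enzyme of glutathione metabolism, and Egr1 (0.93), an immediate early transcription factor. Because Il1rap differed between the groups without overlap, this ranking favours genes that differ in the same direction, so their own group differences carry no information. With each group centred the highest were Arid1b, Taok2, Mill1, Sin3b and Clcn6 (r = 0.96, 0.96, 0.96, 0.94 and 0.93), none of which was among the first 5. Leaving out 1 library left between 1 (without PBS replicate 4) and 4 of the first 5 among the 5 nearest, and 1 remained without the 3 libraries of lowest neuronal mean, so the order rests on few libraries.

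**Figure D4:**
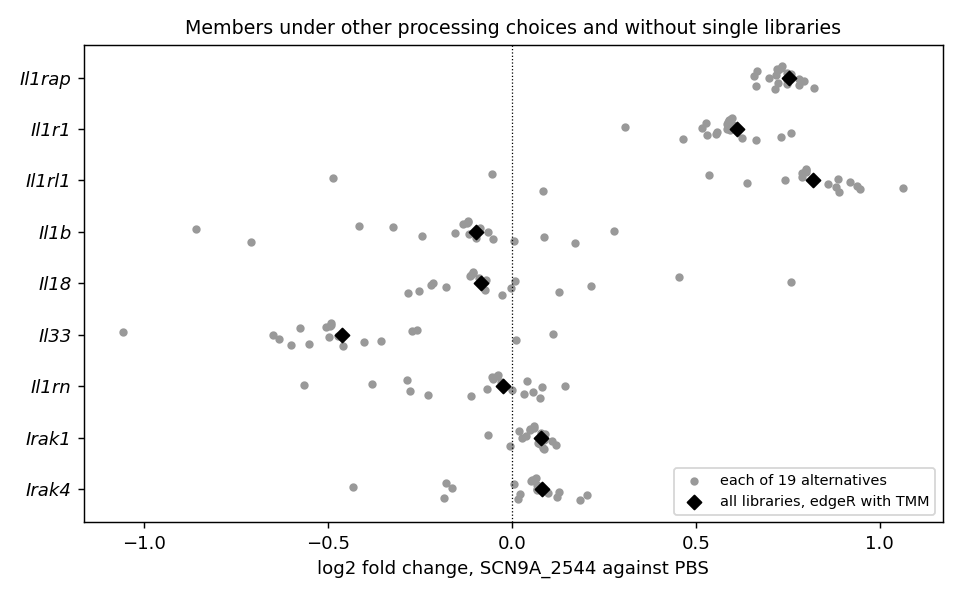
Log2 fold change of each member with all libraries (black diamond) and under each of 19 alternatives (grey points), which change the tool, scaling, filter or covariate or leave out libraries. Il1rap stays between 0.66 and 0.82, while the points of Il1rl1, the 4 ligands and the 2 kinases lie on both sides of 0.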

How the data were processed

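The table deposited by the authors holds estimated counts for each gene and library, without normalization, and 11.6% to 12.4% of a library's values are not whole. STAR 2.7.10a, DESeq2 1.44.0 and build mRatBN7.2 appear, without roles, per the submitters' processing notes. For the counting program, annotation release and strand setting the sources used here give nothing. Per the labels' protocols, poly(A) RNA was sequenced as paired reads of 150 bases.

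Counts were rounded, genes filtered with filterByExpr (minimum count 10, minimum total 15), and libraries scaled with TMM. The test was edgeR 4.0.16's quasi-likelihood F-test in R 4.3.3, with Benjamini-Hochberg adjustment over 15186 genes and a threshold of 0.05. The SE is the log2 fold change divided by the square root of F. Log2 CPM used a prior count of 2, count ratios an offset of 0.5, and correlations 100000 permutations, two-sided. CPM takes no account of transcript length, so levels are compared between libraries and not between genes. The procedure was also run on simulated data with known changes, and the number of these that it recovered is not given here. DESeq2 1.42.0 and limma 3.58.1 were alternatives.

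The members and lists were chosen with earlier results of these data known. Genes named were all members, Scn9a, the 3 smallest p of each pathway list, fixed partners of the members, and the 5 genes most like Il1rap, also after centring within groups. Since the labels do not tie each sample to its own animal, p-values cover the spread between samples, which may be partly technical. Chi-square values per gene between library pairs (45 pairs) ran from 7.80 to 218, so no library repeats another. Promoter sequences are RefSeq's, from build GRCr8.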

Additional observations from a re-analysis of the deposited data

Results flagged for a closer look

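Of 52 groups of 5 libraries examined over the members, the named pathway genes and Scn9a, 4 held a library far from the other 4, where chance gives about 1 in 20. Il1r1 in PBS stood at 8.46 CPM in replicate 4 against 5.13 to 5.79 CPM in the others. Il1rl1 in treated ganglia stood at 14.4 CPM in replicate 4 against 1.43 to 4.59 CPM. Casp4 in treated ganglia stood at 7.35 CPM in replicate 2 against 11.1 to 12.0 CPM. Icam1 in treated ganglia stood at 19.5 CPM in replicate 3 against 9.26 to 11.0 CPM.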

How the results depend on the processing

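Under 19 alternatives the Il1rap log2 fold change ran from 0.66 to 0.82. The count of genes called by edgeR, 0, was 17 with DESeq2, 1 with limma voom and library weights, 1 with the neuronal covariate, 1 without the 3 libraries of lowest neuronal mean, and 0 to 1 with 1 library left out (1 without SCN9A_2544 replicate 2 or replicate 3). The number of the other 8 members above 0, 4 with all libraries, was 2 with the macrophage covariate, 3 with limma voom and library weights, 5 with the replicate block, 6 without the 3 libraries of lowest neuronal mean and 4 to 6 with 1 library left out. Pathway genes called stayed at 0 in all 19. The Scn9a difference ran from -1.14 to -0.86 with 1 library left out. Relations with cell content past the threshold were 0 to 1 by r and 0 to 2 by rho with 1 library left out, and 0 by rho after centring within groups. Signs of log2 fold changes were opposite in 2 of 19 alternatives for Il1rl1, Il33 and Irak1, 4 for Il1b and Irak4, 5 for Il18 and 7 for Il1rn. The labels do not say whether replicate numbers pair the samples, and 5 pairs are too few to settle it. Of 5 same-numbered pairs 2 had correlated deviations over 0.1 (0.379 for replicate 1 and 0.567 for replicate 3). Of 5 treated libraries 2 correlated best with their own number. With the replicate block 0 genes were called and Il1rap had a log2 fold change of 0.75. The nearest genes to Il1rap were compared across alternatives as a choice made after seeing the data. Low counts limit Il1b, Il18 and Il1rn.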
